A study of Mus musculus with 16 samples.

Results

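The NDRG (N-myc downstream regulated) family was examined in mouse liver with or without the histone chaperone HIRA in hepatocytes, before and after regeneration. Its 4 members, Ndrg1, Ndrg2, Ndrg3 and Ndrg4, were found by symbol among the 55421 gene IDs of the count table. All 4 passed the minimum of 10 counts over all libraries and were among the 23018 genes tested. Ndrg1 was chosen by its lower level in HIRA KO than in control after regeneration, so its values in every comparison that uses those libraries are a description and carry no test. The other members came in by name alone, and their values were tested.

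Male C57BL/6 mice received adeno-associated virus (AAV8) at an age of 6 months. HIRA KO livers had been made in either of 2 ways, with Cre driven by the hepatocyte promoter Tbg in HIRA fl/fl mice or with saCas9 and a guide against HIRA in wildtype mice. Their controls were wildtype mice given Tbg-Cre and wildtype mice given a guide against Rosa26. Part of the liver was resected 4 weeks after injection and gave the samples before regeneration, and the liver that had regrown was collected 5 days after resection from the same mice. Control and HIRA KO livers, each before and after regeneration, made 4 groups of 4 libraries, with 2 of each deletion approach per group. Lobe, way of collection and time differed together between before and after and cannot be told apart. The table's columns name neither mouse nor approach, so libraries are named here by their column number, and nothing says how much of the spread between them is technical.

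NDRG proteins have the fold of alpha/beta hydrolases but lack the catalytic residues. The family takes its name from the repression of its founding member by N-myc. NDRG1 is induced by low oxygen, through hypoxia-inducible factors (HIF), by other stresses and by differentiation, and its protein is phosphorylated by SGK1 and then by GSK3. NDRG2 is abundant in liver, brain and muscle, NDRG3 protein is removed under normal oxygen by prolyl hydroxylation, and NDRG4 is known mostly from brain and heart.

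On GRCm38, Ndrg1 (ENSMUSG00000005125.13) lies at chr15:66929318-66969640 on the minus strand. The coding sequence of its transcript ENSMUST00000005256.13 holds 3 adjacent 30-base units in the last of its 16 exons, at chr15:66930951-66931040. They encode the tandem repeat that sets NDRG1 apart from its relatives and that carries some of its SGK1 sites. The units are shown 5′ to 3′ on the coding strand, and capitals mark the bases that differ from the unit before.
unit 1: gagggcacccgtagccgctcccataccagc
unit 2: gagggcCcccgAagccgctcGcaCaccagT
unit 3: gagggGTcccgTagccgctcCcaTaccagt
Each of the later units differed from the one before at 5 of 30 bases. In the longest coding sequences of Ndrg2, Ndrg3 and Ndrg4 the most alike pair of adjacent in-frame units of this length differed at 13, 15 and 15 bases.

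Ndrg2 (ENSMUSG00000004558.15) lies at chr14:51905271-51914158 on the minus strand, Ndrg3 (ENSMUSG00000027634.14) at chr2:156927345-156992056 on the minus strand, and Ndrg4 (ENSMUSG00000036564.17) at chr8:95676980-95715119 on the plus strand. Aligned coding sequences of the members were identical at between 65.28% and 71.15% of bases. The longest exact run shared by transcripts of any pair of members was the 33-base coding stretch below, common to Ndrg2 and Ndrg4. It is shown because Ndrg2 was the most and Ndrg4 the least abundant member, so that shared reads would weigh most on the Ndrg4 count.
Ndrg2 and Ndrg4: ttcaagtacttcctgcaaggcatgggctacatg
This stretch crosses an exon junction in both genes (exons 15 and 16 of ENSMUST00000004673.14 in Ndrg2, exons 13 and 14 of ENSMUST00000080666.7 in Ndrg4). The other pairs shared runs of 17 to 21 bases. Whether any read was assigned to the wrong member was not tested.

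Library totals ran from 15103059 to 21738619 counts. Levels are given as CPM, read counts scaled to library size with TMM factors. Hira itself was at 3.04 to 4.56 CPM in the 8 HIRA KO libraries and at 4.99 to 6.29 in the 8 controls, lower at log2 -0.70 before and -0.69 after regeneration, with adjusted p of 0.130 and 0.0666 in edgeR and of 0.0131 and 0.00473 in DESeq2. The tissue was bulk liver, in which non-hepatocytes keep HIRA, and their part in the Hira level was not tested. HIRA KO libraries 1 and 2 at both times stood apart from all others on the second principal component (-47.39 to -36.24, against -1.14 to 31.17). Control libraries 1 and 2 were also below 3 and 4 on it, at -1.14 and 3.04 against 10.3 and 10.1 before regeneration. After it they were at 14.5 and 18.4 against 30.8 and 31.2. Values are given with and without the 4 HIRA KO libraries where that matters. Fits without them set HIRA KO libraries 3 and 4 against control libraries 1 to 4. In bulk tissue, fewer cells of a type and less RNA per cell cannot be told apart. The 6 hepatocyte markers summed to between 1.02e+05 and 1.63e+05 CPM in all libraries, the cholangiocyte markers to 48.4 to 149, the endothelial markers to 141 to 238, and those of Schwann, mast, and T and B cells to between 1.60 and 8.48. Smooth muscle markers summed to 2.23 to 8.45 CPM outside HIRA KO before, where they reached 114. The 6 Kupffer cell markers were all called higher with regeneration in both genotypes, from 98.7 to 282 CPM before to 515 to 864 after it, and their part in the members' values was not tested.

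Ndrg1 was higher after than before regeneration in control livers and not in HIRA KO livers, in the libraries on which it was chosen. Before regeneration, control libraries 1 to 4 held 15.1, 9.41, 11.4 and 18.9 CPM (13.7 ± 4.21, SD, n = 4). HIRA KO libraries held 16.6, 8.80, 7.89 and 9.83 CPM at that time (10.8 ± 3.94). Here the groups overlapped, with HIRA KO library 1 above 3 of the 4 controls.

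After regeneration the groups no longer overlapped. Control libraries held 33.5, 17.2, 42.7 and 36.1 CPM of Ndrg1 (32.4 ± 10.8). HIRA KO libraries held 6.84, 5.73, 10.0 and 9.74 CPM (8.08 ± 2.12). The lowest control, library 2, was thus above the highest HIRA KO library by 17.2 against 10.0 CPM. The counts behind these levels were 300 to 783 in control and 129 to 211 in HIRA KO.

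**Figure D1:**
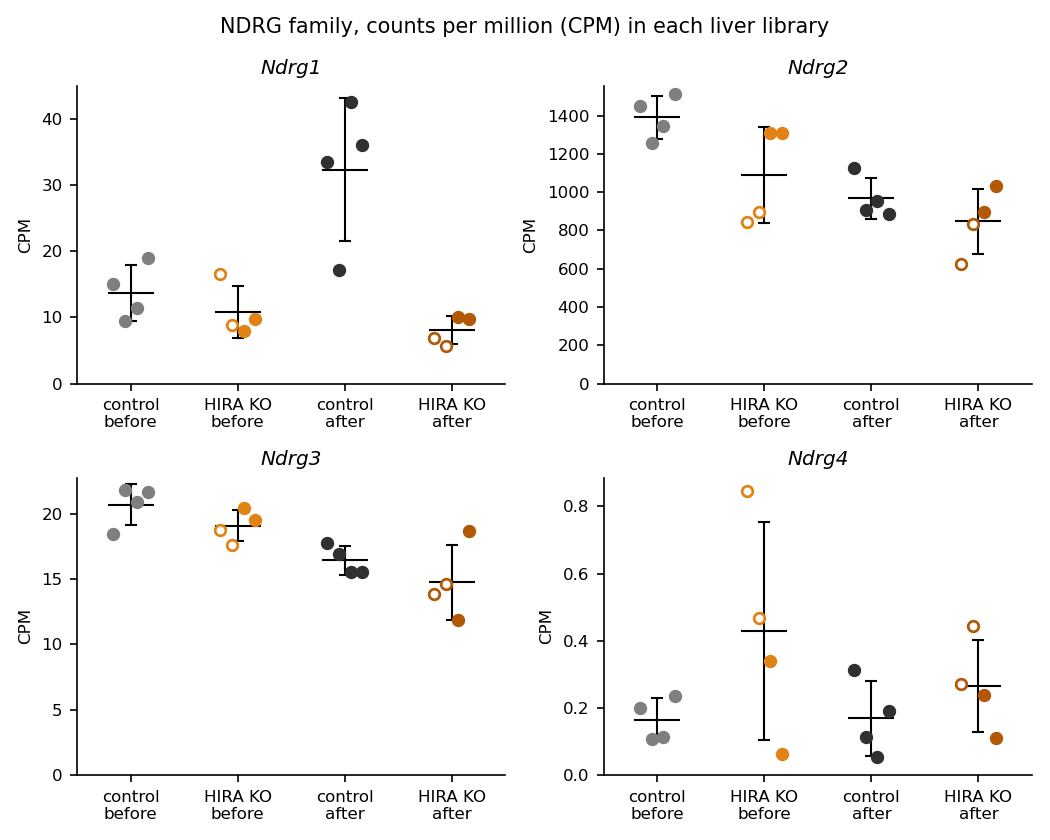
Levels of the 4 members in each library, in CPM (linear axes from 0), by group. Circles are libraries, open circles are the 4 HIRA KO libraries that stood apart, and bars are mean ± SD of 4 libraries; Ndrg1 lies at 17.2 to 42.7 CPM in control after regeneration and at 5.73 to 18.9 in the other 3 groups.

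In the fit over all genes, Ndrg1 in HIRA KO was at 24.9% of control after regeneration, a log2 fold change of -2.00 ± 0.315 (SE). Without the 4 libraries that stood apart it was -1.71, and leaving out any single library gave between -2.21 and -1.84. For background, edgeR called 113 genes in this comparison (0.491% of those tested) and the groups of 4 did not overlap for 8.10% of genes. Since Ndrg1 was selected on this contrast, nothing is read from its place among them.

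In control livers Ndrg1 after regeneration was at 2.36-fold its level before (log2 1.24 ± 0.307). The groups still overlapped at their edge in CPM, since control library 2 after regeneration (17.2 CPM) was below control library 4 before it (18.9 CPM). HIRA KO livers changed by -0.42 ± 0.313, and by 0.15 in the other direction without the libraries that stood apart. The HIRA KO effect on Ndrg1 differed between the times by -1.66 ± 0.437, or by -1.08 without those libraries. These values share libraries with the contrast that chose the gene.

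Before regeneration, where the choice did not use the data, Ndrg1 was not called. HIRA KO was at 78.9% of control, with a log2 fold change of -0.34 ± 0.309 and an edgeR adjusted p of 0.679. An exact two-sided permutation test over libraries gave p = 0.286, where 4 against 4 libraries can reach 0.0286 at best. The interval of 2 SE ran from -0.96 to 0.28. Without the libraries that stood apart the log2 fold change was -0.63. It was not called in any of the 9 other settings, with adjusted p of 0.568 to 0.857 by edgeR, DESeq2 or limma. The call rate in this comparison was 0.0391% of genes (9 genes), and 8.07% of genes had groups that did not overlap.

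Per length, Ndrg1 was a minor member. FPKM (fragments scaled to transcript length and to sequencing depth) means were 3.99 ± 1.08 for control and 3.30 ± 1.26 for HIRA KO before regeneration. After it they were 10.4 ± 3.70 for control and 2.79 ± 0.858 for HIRA KO. The order of the groups was therefore control after, control before, HIRA KO before and HIRA KO after, and the last 3 overlapped with their neighbours in that order. Control after, at 5.62 to 13.9 FPKM, lay above control before, at 2.88 to 5.27. Of the family's summed FPKM, Ndrg1 made up 1.11% to 2.71% in control after and 0.34% to 1.17% in the other libraries.

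Ndrg2, the member with a known role in liver metabolism and growth restraint, made up the rest almost alone. It held 96.3% to 98.7% of the family's FPKM in every library, and its mean of 531 FPKM placed it at percentile 99.3 of the genes tested. In CPM, control libraries held 1449, 1257, 1345 and 1510 before regeneration and 1125, 905, 953 and 887 after it. All 4 controls after regeneration lay below all 4 before it. HIRA KO libraries held 845, 897, 1306 and 1307 CPM of Ndrg2 before and 626, 833, 897 and 1031 after. In both HIRA KO groups the lower levels were those of libraries 1 and 2, the libraries that stood apart.

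In control livers Ndrg2 was at 69.6% of its level before regeneration (log2 -0.52 ± 0.176). The exact permutation test gave p = 0.0286, the smallest possible here, whereas the edgeR adjusted p was 0.0687 and that of DESeq2 0.0181. It was therefore not called by edgeR. Here and for the other members, these tests treat libraries before and after regeneration as independent. The libraries came from the same mice, but no column names the mouse. With regeneration in control, edgeR called 10.2% of all genes and DESeq2 called 3282 of 23018. The groups did not overlap for 19.0% of genes.

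In HIRA KO livers Ndrg2 differed after against before by log2 -0.36 ± 0.176 (edgeR adjusted p = 0.192). HIRA KO against control gave -0.35 ± 0.176 before regeneration (edgeR adjusted p = 0.405) and -0.19 ± 0.176 after it (edgeR adjusted p = 0.646). Without the libraries that stood apart these became -0.09 and -0.005 (edgeR adjusted p = 0.951 and 0.994). The difference of the HIRA KO effect between the times was 0.16 ± 0.249, with an interval of 2 SE from -0.34 to 0.66. By group, mean FPKM of Ndrg2 fell from control before (633 ± 41.5) over HIRA KO before (552 ± 117) and control after (498 ± 20.7) to HIRA KO after (440 ± 84.8), with overlap between each pair of neighbours.

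Ndrg3, the oxygen-regulated member, varied least from library to library. Control libraries held 18.5, 21.8, 20.9 and 21.7 CPM before regeneration and 17.8, 16.9, 15.5 and 15.5 after it, with no overlap. HIRA KO libraries held 18.7, 17.6, 20.5 and 19.5 CPM before and 13.8, 14.7, 11.9 and 18.7 after. In HIRA KO only library 4 after regeneration reached the range seen before it.

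Ndrg3 was at 79.4% of its earlier level in regenerated control livers (log2 -0.33 ± 0.121, edgeR adjusted p = 0.0914, exact permutation p = 0.0286). In HIRA KO livers it was at 77.3% (log2 -0.37 ± 0.121, edgeR adjusted p = 0.0534, exact permutation p = 0.0571). DESeq2 called both, at adjusted p of 0.0469 and 0.0240. Of all 23018 genes it called 3282 in control and 3654 in HIRA KO. All 4 HIRA KO columns were lower after than before when set side by side by number. With that number, which is in no label, as a replicate block, edgeR called Ndrg3 in HIRA KO (log2 -0.38, edgeR adjusted p = 0.0465). For HIRA KO, edgeR also called it once library 4 after regeneration was left out (log2 -0.50, edgeR adjusted p = 0.00754). In HIRA KO edgeR called 12.0% of all genes, and 16.1% had groups that did not overlap. In control these shares were 10.2% and 19.0%.

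HIRA KO against control left Ndrg3 within 2 SE of 0 at both times. The log2 fold change was -0.12 ± 0.121 before regeneration (edgeR adjusted p = 0.725) and -0.16 ± 0.121 after it (edgeR adjusted p = 0.574). The intervals of 2 SE ran from -0.36 to 0.12 and from -0.40 to 0.09. Group means were 6.42 ± 0.531, 6.35 ± 0.877, 5.24 ± 0.337 and 4.77 ± 0.730 FPKM for control and then HIRA KO before regeneration and for control and then HIRA KO after it. Neighbours in this order differed by less than their spread, except HIRA KO before against control after, which did not overlap and were not compared further.

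Ndrg4, the brain and heart member, was near the limit of detection. It had 2 to 4 counts in control libraries before regeneration and 16, 7, 5 and 1 in HIRA KO libraries 1 to 4. After regeneration the counts were 1 to 5 in control libraries and 6, 10, 5 and 2 in those of HIRA KO. The highest counts were again in HIRA KO libraries 1 and 2. Mean levels were 0.164, 0.429, 0.169 and 0.266 CPM, and the gene stood at percentile 21.1 of the genes tested.

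No comparison called Ndrg4 in edgeR. HIRA KO against control gave log2 1.37 ± 0.627 before regeneration (edgeR adjusted p = 0.362) and 0.68 ± 0.641 after it (edgeR adjusted p = 0.658). After against before gave 0.02 ± 0.703 in control livers and -0.68 ± 0.579 in those of HIRA KO. With errors of this size a 2-fold change was not detectable. One control library with 2 counts had an empty FPKM cell.

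**Figure D2:**
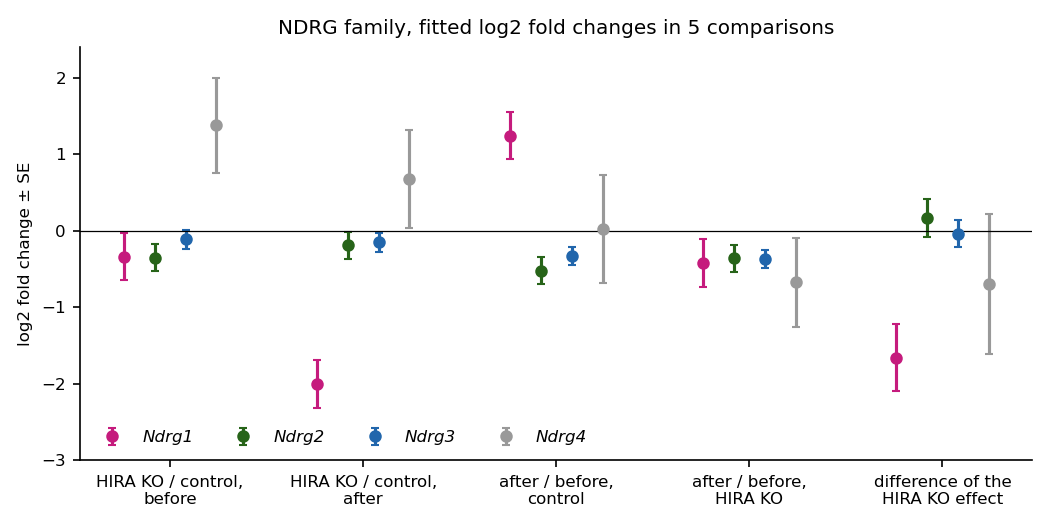
Log2 fold changes of the 4 members in the 5 comparisons (points, with bars of 1 SE, 4 libraries a group). Ndrg1 lies at -2.00 for HIRA KO against control after regeneration, where it was chosen, and the other members with more than a few counts stay between -0.52 and 0.16 throughout.

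Over all members, edgeR called none in any tested comparison when all 16 libraries and 23018 genes were fitted with group means alone. With the replicate block it called only Ndrg3 after against before in HIRA KO. Some other settings called Ndrg2 or Ndrg3, as given in the last section. For the difference of the HIRA KO effect between the times, edgeR in the first of these fits called 0% of genes, none of 23018. There 1568 had an unadjusted p under 0.05, and DESeq2 called 67. The adjusted p in edgeR for Ndrg2, Ndrg3 and Ndrg4 in this test were 0.937, 0.989 and 0.915. Members also did not vary as a unit. Over the 16 libraries, levels of Ndrg2 and Ndrg3 on the log2(CPM + 1) scale had r = 0.762, whereas those of Ndrg1 had r = 0.10 with Ndrg2, 0.0017 with Ndrg3 and -0.18 with Ndrg4. These libraries share groups and mice, so the values only describe the set.

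Genes of the pathways around NDRG1 were taken from lists of oxygen sensors, HIF targets, the MYC network, NDRG1 kinases with mTORC2, and ATF4 with endoplasmic reticulum stress. Of 9, 26, 13, 11 and 13 genes tested, edgeR called none for HIRA KO against control at either time. Of the 72 in all, 7 before and 12 after regeneration had an unadjusted p under 0.05 in edgeR, beside 3031 and 3629 of all 23018 genes. DESeq2 called Asns before and Egln3 and Higd1a after it, beside 375 and 910 of all genes. After regeneration the median log2 fold changes of HIRA KO against control were 0.01, 0.17, -0.01, -0.16 and -0.11, beside 0.02 for all genes. HIF targets had 17 of 26 estimates above 0, the same number as before regeneration. Whether this bears on Ndrg1 was not tested.

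The genes of the HIF subunits were not called by genotype. Hif1a, the inducible subunit of HIF-1, stood at 35.1 ± 3.17 CPM in control and 35.2 ± 1.46 in HIRA KO after regeneration (log2 0.01 ± 0.0979). Epas1, which encodes HIF-2 alpha, differed by -0.08 ± 0.185, and Vegfa, the angiogenic HIF target, by 0.08 ± 0.173. None of these was called (edgeR adjusted p = 0.985, 0.876 and 0.864). For Epas1 and Vegfa these values rested on the libraries that stood apart. Epas1 was at 114 to 148 CPM in control and at 115, 190.5, 106 and 89.7 in HIRA KO libraries 1 to 4, and Vegfa at 85.7 to 118 in control and at 114, 156, 78.9 and 82.6 in HIRA KO. Without those libraries Epas1 differed by -0.44 and Vegfa by -0.34 (edgeR adjusted p = 0.236 and 0.362).

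Egln3, a HIF-induced prolyl hydroxylase that marks HIF for removal, had the opposite order of groups to Ndrg1. After regeneration, control libraries held 11.3, 9.69, 10.4 and 14.1 CPM and HIRA KO libraries 39.5, 33.2, 13.4 and 17.2. The high values were those of libraries 1 and 2, and library 3 lay inside the control range. The log2 fold change was 1.18 ± 0.296 (edgeR adjusted p = 0.0820, DESeq2 adjusted p = 0.00385). It was 0.42 (edgeR adjusted p = 0.382) without the libraries that stood apart. Leaving out HIRA KO after library 3 or 4 brought it past the threshold (edgeR adjusted p = 0.0265 and 0.0403). Over the 16 libraries its level had r = -0.66 with that of Ndrg1. Higd1a, a mitochondrial HIF target, had r = -0.65 and lay at 28.4 to 35.0 CPM in control after and 39.0 to 43.3 in HIRA KO after, which is a difference of 0.41 ± 0.104 on the log2 scale (edgeR adjusted p = 0.0770). Higd1a was chosen after its values were seen. Slc2a1, the glucose transporter GLUT1, had r = 0.65 with Ndrg1, also chosen after its values were seen.

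**Figure D3:**
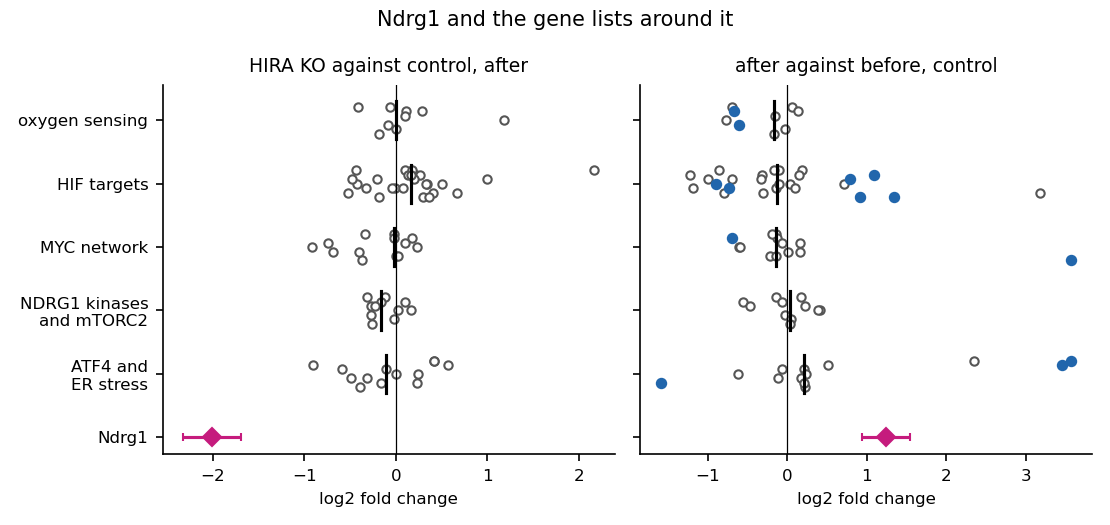
Log2 fold changes of the tested genes in 5 lists (circles, filled blue where edgeR called the gene; black bars are list medians) and of Ndrg1 (diamond, with 1 SE), for HIRA KO against control after regeneration (left) and for after against before in control (right). On the left no list gene is called and the list medians lie between -0.16 and 0.17, with Ndrg1 at -2.00.

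In the MYC network, Myc varied widely before regeneration, and its genotype difference was not called at either time. Before regeneration it ran from 3.32 to 41.5 CPM in control and from 3.60 to 62.7 in HIRA KO, and library 2 was the highest in both. After regeneration it ran from 10.5 to 24.7 CPM in control and from 8.06 to 10.6 in HIRA KO. Its log2 fold change after regeneration was -0.74 ± 0.853 (edgeR adjusted p = 0.728), with an error that rests on the spread in all groups, also those before regeneration. Mycn, the gene of N-myc itself, averaged 0.75 CPM and differed by -0.40 ± 0.795 (edgeR adjusted p = 0.857). In each group its libraries 1 and 2 lay below libraries 3 and 4, also in control before (0.149 and 0.269 against 1.09 and 1.48 CPM). In control after the gap was slight (0.814 and 0.0573 against 0.818 and 1.25 CPM). The kinase genes Sgk1 and Gsk3b differed by 0.10 ± 0.235 and -0.16 ± 0.116 after regeneration, and neither was called. Sgk1 was at -0.21 without the libraries that stood apart (edgeR adjusted p = 0.867).

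With regeneration these lists did hold called genes. In control livers, where Ndrg1 was higher after regeneration, some of them rose as well and others fell. In control livers, where 10.2% of all genes were called, edgeR called 13 of the 72 list genes. In control livers 2 of 9 oxygen sensing genes fell, the prolyl hydroxylase gene Egln1 by 0.67 and Epas1 by 0.61 on the log2 scale. Of 26 HIF targets, 4 rose and 2 fell. Those that rose included the hexokinase gene Hk2 (1.35) and Slc2a1 (0.78), and those that fell were Vegfa (-0.74) and Bnip3 (-0.90), a mitophagy receptor. The call of Epas1 was lost in all 8 fits without a single library (edgeR adjusted p from 0.0656 to 0.117). That of Bnip3 was lost in 6 of 8 (up to 0.0851), being kept only without library 3 before or library 1 after.

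In the MYC network of control livers, Mxd3, a MAX partner of dividing cells, rose by 3.57, and Mxi1, a MYC antagonist, fell by 0.70. The ATF4 list had Asns (3.57) and Psat1 (3.45), genes of amino acid synthesis, higher and Herpud1 (-1.59), of endoplasmic reticulum stress, lower. The 11 kinase genes held none called by edgeR. Medians of the 5 lists were -0.17, -0.13, -0.14, 0.04 and 0.21, beside 0.00 for all genes.

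In HIRA KO livers edgeR called 11 of the 72 list genes, beside 12.0% of all genes. There 3 of 9 oxygen sensing genes fell, which were Egln1 (-0.55), Hif1an (-0.45), the asparaginyl hydroxylase of HIF, and Epas1 (-0.73). Of 26 HIF targets, Hk2 rose (1.12) and 3 fell, among them Vegfa (-0.71) and Kdm3a (-0.54), a histone demethylase. In the MYC network Mxd3 rose (2.85), and Mxi1 (-0.73) and Mlxipl (-0.86), which encodes the glucose sensor ChREBP, fell. Herpud1 (-1.40) was the only called gene of the ATF4 list. The kinase genes again held none called by edgeR. List medians were -0.14, -0.06, -0.40, -0.18 and -0.03, beside 0.02 for all genes. Epas1 lost its call without HIRA KO before library 4 or after library 3 (edgeR adjusted p = 0.0737 and 0.0618), and Mlxipl without after library 3 (0.0526). Kdm3a lost its call without before library 2, after library 2 or after library 3 (edgeR adjusted p = 0.0887, 0.0732 and 0.0546). It also lost the call in 4 of 9 other settings, over which its estimate ran from -0.55 to -0.19. Whether the response of a list gene differed between genotypes was tested by the difference of the HIRA KO effect. There edgeR and DESeq2 called none of the 72. In edgeR 5 had an unadjusted p under 0.05, beside 1568 of all 23018 genes.

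Levels most like Ndrg1 were sought among 9721 genes with a mean of at least 5 CPM, by Pearson r of log2(CPM + 1) over the 16 libraries. The 8 highest were Slc4a4 (0.904), a sodium bicarbonate cotransporter, Abca8b (0.893), an ABC transporter, St6gal1 (0.883), a sialyltransferase of liver glycoproteins, the receptor phosphatase Ptpra (0.868), the nuclear receptor corepressor Ncor1 (0.855), Rap2c (0.847), Ppfibp2 (0.839) and Arhgef5 (0.837). Since they were picked by likeness to Ndrg1, their own contrasts are given without a test.

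St6gal1 came nearest to Ndrg1 in the size of its differences. Before regeneration it averaged 109 ± 14.6 CPM in control and 95.0 ± 8.59 in HIRA KO livers. After it the means were 209 ± 40.8 CPM and 93.3 ± 18.8. Its log2 fold change was 0.94 for regeneration in control and -1.16 for HIRA KO against control after. Abca8b stood at 63.3, 49.0, 88.8 and 45.0 CPM in the same order, and Slc4a4 at 59.0, 46.5, 74.4 and 44.9. In all 8 genes the control group after regeneration had the highest mean, as in Ndrg1.

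**Figure D4:**
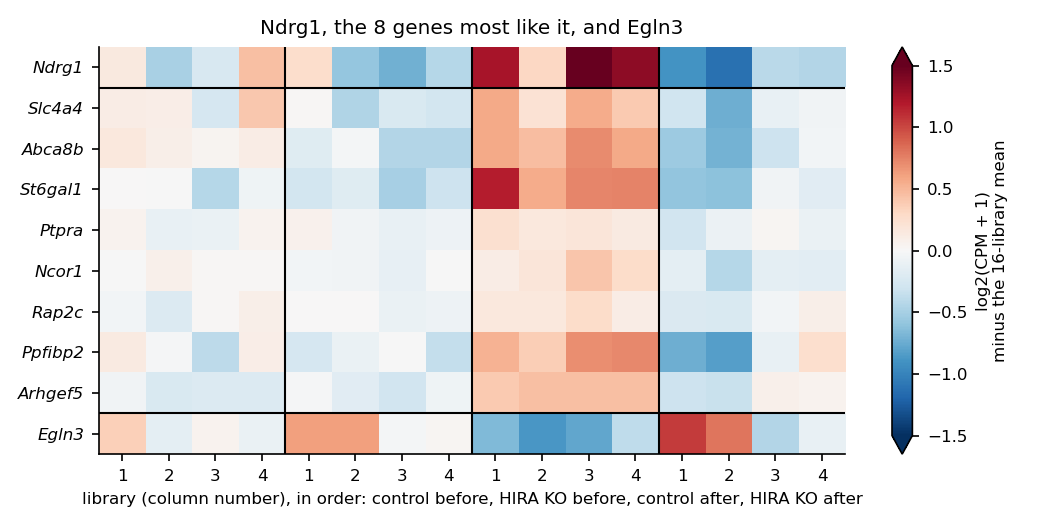
Level of Ndrg1, of the 8 genes most like it and of Egln3 in each library, as log2(CPM + 1) minus the mean of that gene over 16 libraries (red above, blue below, colours saturate at 1.5). The mean of Ndrg1 and of each of the 8 genes is highest in control after regeneration, where Egln3 is low. Ndrg1 in library 2 of that group and Slc4a4 in its libraries 2 and 4 lie below their highest library before regeneration. Egln3 is high in HIRA KO libraries 1 and 2.

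Once the group means were taken out, so that only the spread within groups remained, other genes led. Ildr2 had r = 0.921 with Ndrg1, Chmp6 0.889, Gas6 0.820, Syne2 0.779 and Carhsp1 0.774. Ildr2, a membrane protein linked to liver lipid handling, followed Ndrg1 in being lowest in library 2 among the 4 controls after regeneration (20.5 CPM, against 31.2 to 37.9 in the others).

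The genes whose levels varied over the libraries most like those of the other members were of another kind. For Ndrg2 they were Apoa2 (r = 0.982), an apolipoprotein of HDL, Phyh (0.978), a peroxisomal hydroxylase, and Slc2a2 (0.973), the hepatocyte glucose transporter. For Ndrg3 they were Rxrb (0.940), Gid4 (0.920) and Mib2 (0.916). For Ndrg4 they were Cavin1 (0.883), Fras1 (0.855) and Lamb1 (0.837), of which the last 2 are extracellular matrix genes. Summed markers of stellate cells and matrix, 7 genes, ran from 193 to 210 CPM in control before and from 214 to 610 in HIRA KO before, where Ndrg4 counts were highest. They also ran from 156 to 386 CPM in control after, where Ndrg4 averaged 0.169 CPM against 0.164 in control before. In HIRA KO after they ran from 296 to 435 CPM, and Ndrg4 averaged 0.266 CPM. Their part in the Ndrg4 values was not tested.

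On the chromosome, the tested gene next to Ndrg1 on the higher-coordinate side, upstream of its start, was St3gal1, 133235 bp away, which encodes a sialyltransferase of O-glycans. It differed in the direction of Ndrg1 after regeneration. Control libraries held 117, 112, 142 and 172 CPM before regeneration and 215, 203, 251 and 182 after it. HIRA KO libraries held 81.5, 102, 116 and 108 CPM before and 129, 83.9, 145 and 123 after. After regeneration all 4 controls lay above all 4 HIRA KO libraries.

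St3gal1 was called for HIRA KO against control after regeneration (log2 -0.82 ± 0.174, edgeR adjusted p = 0.0443) and for regeneration in control (log2 0.65 ± 0.173, edgeR adjusted p = 0.0229), which share the control libraries. The first call did not hold in 5 of 9 other settings, among them without the libraries that stood apart (log2 -0.67, edgeR adjusted p = 0.177). It was also lost in 6 of 8 fits that each left out 1 library (edgeR adjusted p up to 0.142), kept only without HIRA KO after library 3 or 4. The second was lost without control before library 1 or 2 or control after library 3 (edgeR adjusted p = 0.0771, 0.0759 and 0.0828). HIRA KO against control before regeneration was -0.42 ± 0.173 (edgeR adjusted p = 0.320), and the difference of the HIRA KO effect was -0.41 ± 0.245 (edgeR adjusted p = 0.781).

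**Figure D5:**
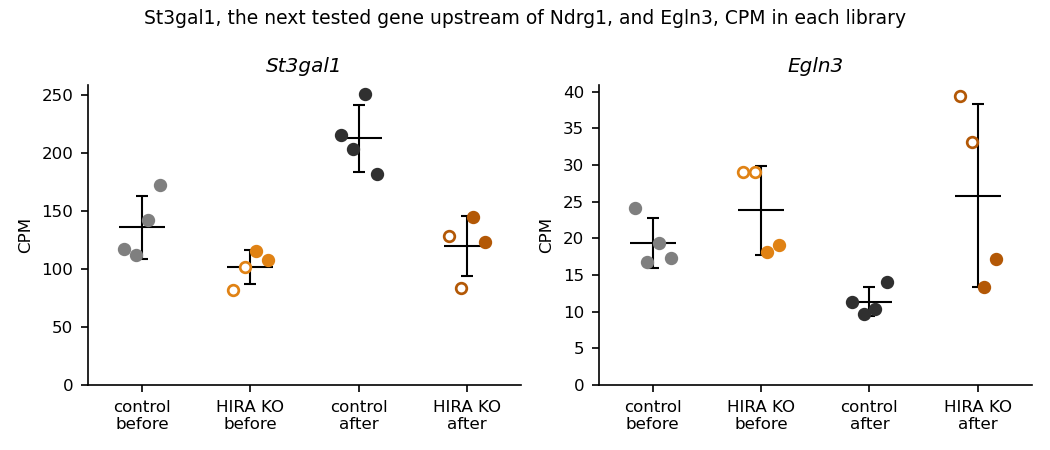
Levels of St3gal1 (left) and Egln3 (right) in each library, in CPM on linear axes from 0; open circles are the HIRA KO libraries that stood apart, bars are mean ± SD of 4 libraries. After regeneration St3gal1 lies at 182 to 251 CPM in control and 83.9 to 145 in HIRA KO, and Egln3 is above 30 CPM only in HIRA KO libraries 1 and 2.

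On the other side of Ndrg1, Ccn4, a matrix-associated signalling gene 6117 bp away, averaged 1.45 CPM and was not called in any comparison. Genes that overlap Ndrg1 on the opposite strand, the antisense Gm17035 and the bidirectional promoter RNA Gm2895, had 0 and 2 counts over all 16 libraries. Neighbours of the other members had no call for HIRA KO against control. Gins3, a replication gene next to Ndrg4, rose with regeneration on the log2 scale by 1.15 in control livers (edgeR adjusted p = 0.0309) and by 1.42 in HIRA KO livers (edgeR adjusted p = 0.0115), the first call being lost in 4 of 8 fits without a library (up to 0.122). The pseudogene Gm14276 next to Ndrg3, at a mean of 0.25 CPM, rose by 2.70 in control (edgeR adjusted p = 0.0111) and by 2.49 in HIRA KO (0.0228). The second call was lost without HIRA KO before library 1, 2 or 3 or after library 3 (up to 0.0602) and without the libraries that stood apart (0.143).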

How the data were processed

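Poly-A-selected RNA of 16 liver libraries was measured. The deposited count table holds whole-number read counts per gene, and the second deposited table holds FPKM for the same columns. According to the study's methods the authors aligned to mm10 with STAR and counted with HOMER, whereas the submitters' processing notes name STAR, HTSeq and Cufflinks. Strand use and the annotation release are not given in the sources used here. Of 55421 gene IDs, 54587 were identical to GENCODE M21, version included, which gave coordinates and transcripts. Empty FPKM cells were read as listed at 0. No column was left without a group (0 unmatched).

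The members and gene lists were chosen with earlier results of these data known. Genes with at least 10 counts in total were tested. Counts were scaled by TMM (factors 0.915 to 1.10) and fitted together, with a mean for each of the 4 groups, by edgeR 4.0.16 (R 4.3.3, robust quasi-likelihood test, Benjamini-Hochberg adjustment over all 23018 genes, call at 0.05). The SE was taken as the size of the log2 fold change over the root of its F statistic. Exact two-sided permutation tests used CPM. DESeq2 1.42.0 and limma 3.58.1 gave alternatives. Scripts were tested on simulated data. Sequences were compared with Biopython 1.88, and plots drawn with matplotlib 3.10.9 in Python 3.11.15.

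Genes named were the 4 members, Hira, Myc, Mycn, Hif1a, Epas1, Egln3, Vegfa, Mxi1, Sgk1 and Gsk3b. To these came the 2 higher and 2 lower called genes of each list and comparison with the smallest p. Genes of the most similar pattern over libraries were also named (8 for Ndrg1, 5 with group means removed, 3 for each other member). So was the nearest tested gene on each side of a member. Counts and totals limit precision by counting error only. The SDs also hold biological and technical spread.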

Additional observations from a re-analysis of the deposited data

How the results depend on the processing

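The numbers of genes called, the background to the members, depended on the settings. For HIRA KO against control before regeneration (9 genes) the count was 375 in DESeq2, 36 without a filter on low counts and 5 without the 4 HIRA KO libraries that stood apart, and 1 to 26 leaving out single libraries. After regeneration (113) it was 910 in DESeq2, 228 with filterByExpr, 0 with only the groups compared, 19 without the 4 libraries and 5 to 503 leaving out single libraries. For regeneration (2350 in control, 2764 in HIRA KO) it was 3784 in control without the 4 libraries and 1340 in HIRA KO with only the groups compared, and 1519 to 2324 and 1636 to 2784 leaving out single libraries. For the difference of the HIRA KO effect (0) it was 67 in DESeq2, 1 without the filter and 0 to 7 leaving out single libraries.

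Without the 4 libraries Ndrg1 after against before in HIRA KO turned from -0.42 to 0.155, and its difference of the HIRA KO effect went from -1.66 to -1.08. Its HIRA KO effect after regeneration stayed between -2.21 and -1.55 in all settings. Ndrg2 in control after against before was called in DESeq2 (-0.52, adjusted p = 0.0181), with only the groups compared (-0.52, edgeR adjusted p = 0.0151) and without the 4 libraries (-0.52, edgeR adjusted p = 0.00552), and was -0.34 (limma adjusted p = 0.211) on log2(FPKM + 0.1). Ndrg3 was called in control in DESeq2 (-0.33) and in HIRA KO in DESeq2 (-0.37), with filterByExpr (-0.35) and by limma on log2(FPKM + 1) and log2(FPKM + 0.1) (-0.35 and -0.41), with -0.50 to -0.27 leaving out single libraries. Ndrg4 in control ran from -0.41 to 0.30 leaving out single libraries, and DESeq2 gave it no adjusted p in 3 comparisons. Fits by deletion approach were not run, since the columns carry none.

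The running number of the columns is in no label, so it was not taken as a pairing. With it as a replicate block the counts of genes called were 104, 565 and 1 for HIRA KO before, after and their difference, and Ndrg3 in HIRA KO was called (-0.38, edgeR adjusted p = 0.0465), with no other call of a member changed. Deviations of same-numbered before and after libraries had r of 0.081 to 0.377 in control, each highest with its own number, and 0.386 to 0.587 in HIRA KO, 3 of 4 so.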
